A study of Sus scrofa with 6 samples.

Results

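Genes of the glucocorticoid receptor pathway were followed in lung tissue of piglets on both sides of birth. The set comprised 10 genes, namely the receptor NR3C1, the hormone-regulated genes FKBP5, TSC22D3, KLF9, SGK1, ZBTB16, DUSP1 and FAM107A, and the cortisol-converting enzymes HSD11B1 and HSD11B2. They were picked by name with results of these libraries already known, FAM107A because it was among the strong differences between the groups, so their levels are a description and no test is attached to them. Of the 10 genes, 9 were found among the 14579 mRNAs of the table, and TSC22D3 was not analysed here. The 6 animals were female piglets of a cross between Tibetan sires and Meishan dams, and all were killed by exsanguination under ketamine. The fetal group held 3 piglets taken from 3 sows on the last day of gestation, and the neonatal group held 3 piglets from another 3 sows at an age of 2 days. The study mentions both caesarean and parturition as the end of rearing, without stating which applied to each group. Age, the mode of delivery and the change from fetal to air-breathing life cannot be told apart in this design, nor can any effect of the sow. One strand-specific library depleted of ribosomal RNA was made from the lung of each piglet, so the p-values below measure the spread between these animals.

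Cortisol crosses the cell membrane and binds the glucocorticoid receptor, which waits in the cytoplasm in a complex with HSP90 and other chaperones. The bound receptor moves to the nucleus, where it raises the transcription of some genes and lowers that of many inflammatory ones. Cortisol rises in the fetus before birth and promotes the maturation of the lung, including surfactant production and thinning of the septa. Inside the tissue, HSD11B1 regenerates active cortisol from inert cortisone and HSD11B2 performs the opposite reaction.

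Values are FPKM, fragment counts divided by transcript length and by the mapped fragments of the library, and so may be compared between genes. Read counts were not part of the table, so counting error is unknown. The median FPKM of the 6 samples lay between 4.99 and 6.11, and 3.03% to 5.68% of mRNAs were listed at 0. Summed FPKM differed more, from 339500 to 471200 in the fetal and from 491500 to 778000 in the neonatal samples. Median-of-ratios size factors ran from 0.908 in Fetal2 to 1.15 in Neonatal3. Summed levels were 4048 to 10080 FPKM over 5 alveolar type II genes, of which SFTPC alone had 3171 to 8790 FPKM. Over 4 alveolar type I genes the sums were 721.3 to 1340 FPKM. AGER and CAV1 were the highest of these 4, and PDPN had 1.08 to 7.55 FPKM. Differences are neonatal minus fetal means of log2(FPKM + 1), written log2(FC), with the standard error (SE) from limma, and the threshold for a call was an adjusted p of at most 0.05. This scale understates the change of genes with low FPKM. Over all mRNAs the median log2(FC) was 0.13, which became -0.0090 after median-of-ratios scaling, so small positive values are read against this shift.

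FAM107A, ZBTB16 and KLF9 had much lower levels in the neonatal than in the fetal group, and FKBP5 and HSD11B1 were lower to a lesser extent. HSD11B2 was higher after birth, while NR3C1 and DUSP1 had overlapping values. Over the 9 genes the median log2(FC) was -1.02. Values of the groups did not overlap in 5 genes that were lower and 2 that were higher, beside 9.64% and 20.9% of all mRNAs. These counts partly repeat how the genes were picked, and nothing is read from them.

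**Figure D1:**
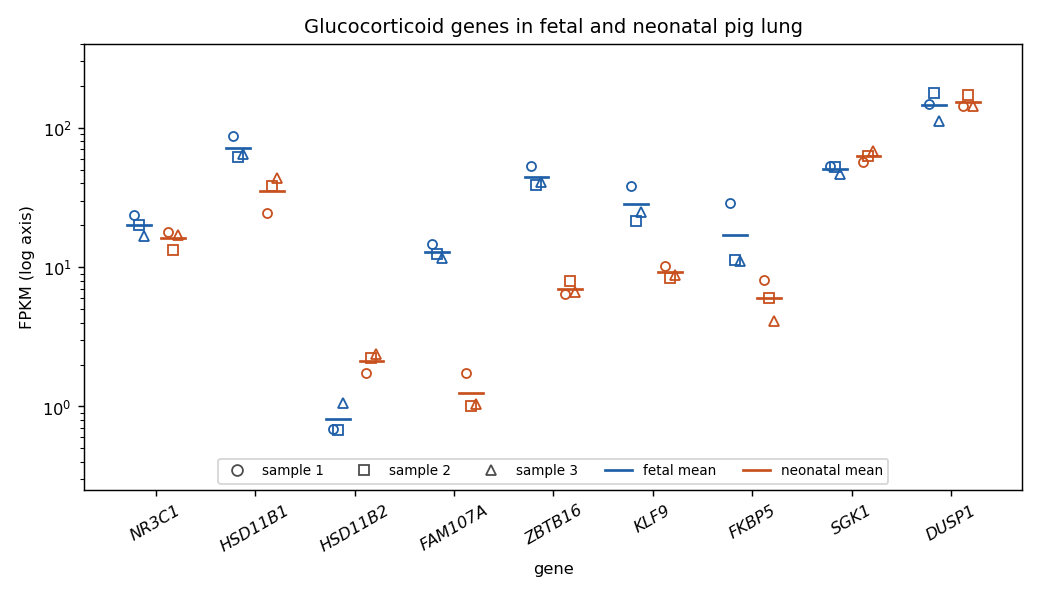
FPKM of the 9 measured genes in each sample, on a log axis, with the fetal and neonatal groups side by side. Points are single animals (circle, square and triangle for samples 1, 2 and 3) and bars are group means; FAM107A and ZBTB16 show the widest gaps, and NR3C1 and DUSP1 show overlapping groups.

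NR3C1 (ENSSSCG00000014401), the receptor itself, had 23.6, 20.0 and 16.7 FPKM in Fetal1, Fetal2 and Fetal3 and 17.8, 13.3 and 17.2 FPKM in Neonatal1, Neonatal2 and Neonatal3. Fetal3 lay below 2 of the neonatal samples, so the groups overlapped. The means were 20.1 ± 3.43 and 16.1 ± 2.42 FPKM (SD, n = 3 each), and the log2(FC) was -0.30 (SE 0.20). It was -0.19 without Fetal1 and -0.18 without Neonatal2.

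FAM107A (ENSSSCG00000011478) encodes an actin-binding protein that is induced by stress and by glucocorticoids. Its levels were 14.7, 12.5 and 11.6 FPKM before birth (Fetal1 to Fetal3) and 1.74, 1.00 and 1.03 FPKM after it (Neonatal1 to Neonatal3). Replicates lay close together, and the lowest fetal value was 6.69 times the highest neonatal value. The mean was 12.9 ± 1.58 FPKM before birth and 1.26 ± 0.416 FPKM after it (SD, n = 3 each), which is 10.3-fold lower, with a log2(FC) of -2.64 (SE 0.21).

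ZBTB16 (ENSSSCG00000030095), a zinc finger repressor that is strongly induced by glucocorticoids in many cell types, had fetal levels of 53.4, 38.7 and 40.8 FPKM. Its neonatal levels were 6.45, 7.99 and 6.62 FPKM. The lowest fetal value was 4.85 times the highest neonatal value, the means were 44.3 ± 7.95 and 7.02 ± 0.844 FPKM (SD, n = 3 each), and the log2(FC) was -2.49 (SE 0.19). ZBTB16 thus went from the range of SGK1 in the fetal lung to that of FKBP5 in the neonatal lung.

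KLF9 (ENSSSCG00000021646) encodes a Krüppel-like transcription factor that responds to glucocorticoid and thyroid hormones. Its values were 38.6, 21.6 and 25.01 FPKM before birth and 10.3, 8.42 and 8.84 FPKM after birth. Fetal1 stood above the other fetal animals, while the neonatal animals were close to each other. The means of 28.4 ± 8.99 and 9.18 ± 0.977 FPKM (SD, n = 3 each) differed 3.09-fold, with a log2(FC) of -1.49 (SE 0.24).

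FKBP5 (ENSSSCG00000001549) encodes a co-chaperone that lowers the affinity of the receptor for cortisol and is itself induced by the receptor. Before birth it had 28.8, 11.2 and 11.1 FPKM and after birth 8.09, 5.97 and 4.08 FPKM. Fetal1 was 2.56 times as high as the next fetal sample, and without overlap all neonatal values were lower. The log2(FC) was -1.26 (SE 0.39), the largest SE among the 9 genes, and -0.83 without Fetal1, with means of 17.0 ± 10.17 and 6.05 ± 2.00 FPKM (SD, n = 3 each).

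SGK1 and DUSP1 are also induced by glucocorticoids, but respond to many other signals. SGK1 (ENSSSCG00000021443), a kinase that raises epithelial sodium channel activity, had 52.8, 52.5 and 46.5 FPKM before birth and 56.5, 62.7 and 68.3 FPKM after it. All neonatal values were higher, with a log2(FC) of 0.30 (SE 0.18), but the difference was 0.12 after median-of-ratios scaling and -0.04 after quantile normalization. DUSP1 (ENSSSCG00000016991), a phosphatase that switches off MAP kinases, was the most abundant of the 9 genes in both groups. Its values were 148.9, 176.8 and 112.5 FPKM before birth and 144.1, 173.5 and 143.8 FPKM after birth, which overlapped, and its log2(FC) of 0.09 (SE 0.24) turned to -0.08 after median-of-ratios scaling, -0.36 after quantile normalization and -0.08 without Fetal3. It was 0.24 without Fetal2 and 0.0034 without Neonatal2.

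The enzymes that set the local supply of cortisol had opposite differences. HSD11B1 (ENSSSCG00000015616) had 87.6, 62.1 and 65.4 FPKM before birth and 24.5, 38.2 and 43.3 FPKM after birth. Its mean was 71.7 ± 13.9 FPKM before and 35.3 ± 9.70 FPKM after birth (SD, n = 3 each), 2.03-fold lower, with a log2(FC) of -1.02 (SE 0.26). HSD11B2 (ENSSSCG00000002777) was low throughout, at 0.685, 0.678 and 1.06 FPKM before birth and 1.73, 2.23 and 2.37 FPKM after birth.

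For HSD11B2 the means were 0.809 ± 0.220 and 2.11 ± 0.340 FPKM (SD, n = 3 each), 2.61-fold higher, and the log2(FC) was 0.78 (SE 0.20). Neither enzyme showed overlap between the groups. Per sample, the FPKM of HSD11B1 was 127.8, 91.5 and 61.5 times that of HSD11B2 in the fetal lungs and 14.2, 17.1 and 18.2 times in the neonatal lungs. The mRNA of the activating enzyme therefore exceeded that of the inactivating one in all 6 samples. With 1 FPKM added to each level, the log2 ratio was 5.32 ± 0.36 before birth and 3.52 ± 0.25 after birth (SD, n = 3 each), with a difference of -1.80. Enzyme activity and cortisol were not measured.

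The order of the mean levels changed with birth. In the fetal group it ran from DUSP1 (146.1 FPKM) through HSD11B1, SGK1, ZBTB16, KLF9, NR3C1, FKBP5 and FAM107A to HSD11B2. The neighbours SGK1 and ZBTB16, KLF9 and NR3C1, NR3C1 and FKBP5, and FKBP5 and FAM107A overlapped in their fetal values. In the neonatal group the order was DUSP1 (153.8 FPKM), SGK1, HSD11B1, NR3C1, KLF9, ZBTB16, FKBP5, HSD11B2 and FAM107A. Here ZBTB16 overlapped with FKBP5, and HSD11B2 with FAM107A. In bulk tissue, fewer cells of a type that expresses a gene and less RNA of the gene per cell cannot be told apart.

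Levels of the cell type markers, each summed over its list, are given beside these differences. Of 5 endothelial markers 0 passed the threshold, and their sum was 217.2 to 253.9 FPKM in the fetal and 213.8 to 235.0 FPKM in the neonatal group. The sum of 5 mesenchymal markers was 698.7 to 880.7 FPKM before birth and 1228 to 1476 FPKM after it, and ACTA2, the actin of smooth muscle, rose. For 3 ciliated cell markers the sums were 46.69 to 77.07 and 46.2 to 50.57 FPKM, for 4 lymphocyte markers 5.76 to 6.559 and 1.732 to 9.455 FPKM, and for 3 erythroid markers 1224 to 2669 and 889.9 to 1457 FPKM. In the 9 lists, 0 markers passed the threshold as lower in the neonatal group, beside 1.45% of all mRNAs, and 0 were listed at 0 in any sample. With so small a share and so few markers, nothing is read from the absence of lower calls. Not every listed marker had a row matched by the reference symbols (5 of 8 endothelial, 2 of 5 neutrophil and 3 of 6 erythroid markers did). The part of cell composition in the lower levels of FAM107A, ZBTB16 and KLF9 was not tested.

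Other genes known to be induced by glucocorticoids were compared from a list of 42 symbols, 22 of which had a row matched by the reference symbols. Of these 22, 3 fell, 1 rose and 18 did not pass the threshold in limma, which 1.45% of all mRNAs passed as lower and 5.41% as higher. The mean was lower in the neonatal group for 15 of them, beside 5850 of all 14579 mRNAs, and the median log2(FC) was -0.48. The study's supplementary list of differentially expressed mRNAs gave further symbols, so the rows it added were selected on this contrast. With them, 26 rows held 3 that fell and 1 that rose, with a median of -0.49. Nothing is read from this addition. PER1, CRISPLD2 and HIF3A were the genes that fell, and ANGPTL4 rose.

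PER1, a repressor of the circadian clock whose promoter the receptor activates directly, had 23.8, 19.8 and 21.4 FPKM before and 6.22, 6.84 and 5.96 FPKM after birth. The groups were far apart relative to their spread. Its log2(FC) was -1.63 (SE 0.17; limma, Benjamini-Hochberg adjusted p = 0.0039), and it passed the threshold with any single sample left out.

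CRISPLD2, a secreted protein of lung mesenchyme, had 54.5, 26.1 and 28.9 FPKM before birth and 11.2, 11.4 and 10.6 FPKM after it (log2(FC) -1.56, SE 0.28; limma adjusted p = 0.0222). As in FKBP5, Fetal1 was the highest sample. HIF3A, a subunit of the hypoxia-inducible factor family, had 2.61, 4.38 and 6.22 FPKM before birth and 0.597, 0.645 and 0.523 FPKM after it (log2(FC) -1.71, SE 0.28; limma adjusted p = 0.0155). Here Fetal1 was the lowest of the fetal samples, and no value overlapped. CRISPLD2 no longer passed without Fetal2, Fetal3 or any 1 of the neonatal samples (adjusted p up to 0.0923), and HIF3A without Fetal2, Neonatal2 or Neonatal3 (up to 0.0877).

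ANGPTL4 went the other way. This secreted inhibitor of lipoprotein lipase, which also responds to fatty acids and to hypoxia, had 2.26, 1.64 and 0.777 FPKM before and 14.0, 12.7 and 10.6 FPKM after birth. Every neonatal value was higher, with a log2(FC) of 2.43 (SE 0.26; limma adjusted p = 0.00453), and the gene passed with any single sample left out.

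PDK4, which restrains the entry of pyruvate into mitochondria, and SESN1, a stress-induced inhibitor of growth signalling, had lower neonatal values without passing the threshold. PDK4 had 43.7, 15.8 and 11.4 FPKM before birth and 8.10, 8.79 and 7.13 FPKM after it (limma adjusted p = 0.145). SESN1 had 35.8, 23.6 and 17.5 FPKM against 10.8, 8.64 and 13.9 FPKM (limma adjusted p = 0.0700). Both genes were named after their values were seen, because Fetal1 was high in them. The number of the 22 genes past the threshold was 8, of which 7 were lower, both after median-of-ratios scaling and after quantile normalization. SESN1, FOXO1 and FOXO3 were added by either scaling, TGFBR3 by the former and SCNN1A by the latter.

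**Figure D2:**
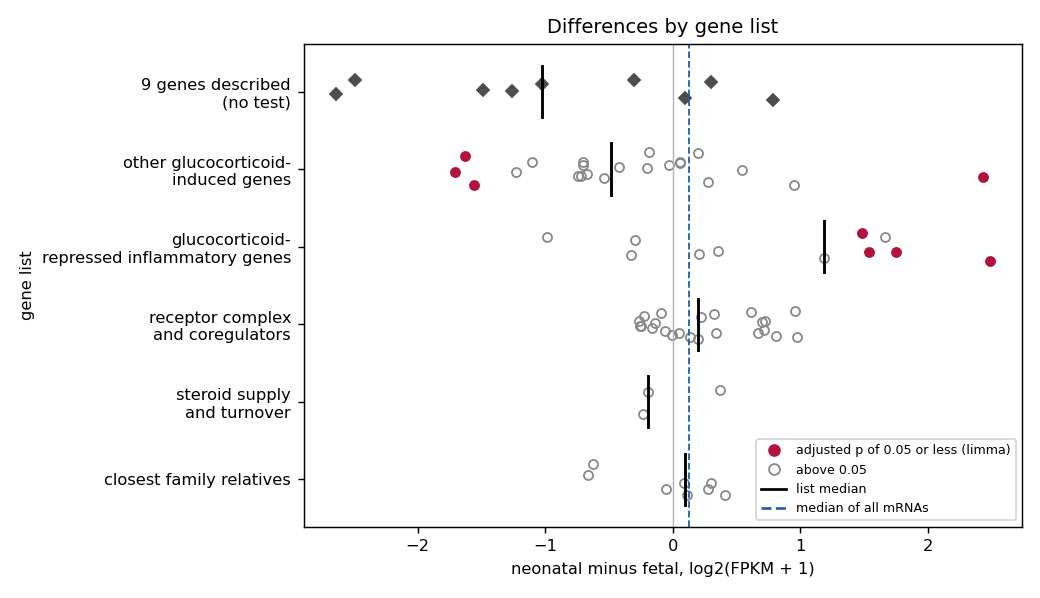
Neonatal minus fetal log2(FPKM + 1) of the 9 genes of the set and of the genes matched by reference symbols in 5 lists of related genes. Grey diamonds are genes of the set, shown as a description only, circles are other genes, red circles passed the threshold in limma, black ticks are list medians and the dashed line is the median of all mRNAs (0.13); the induced genes have a median of -0.48 and the inflammatory genes one of 1.18.

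Inflammatory genes that glucocorticoids are known to restrain were compared next. Of 22 symbols, 11 had a row matched by the reference symbols. Of these, 4 rose, 0 fell and 7 did not pass, with a median log2(FC) of 1.18. Of all mRNAs, 5.41% passed as higher and 1.45% as lower. With symbols from the study's list of differentially expressed mRNAs added, which were selected on this contrast, 14 genes were compared. They held 4 that rose and 0 that fell, with a median of 1.01. Nothing is read from this addition. The genes that rose were the cytokine IL1A, the chemokines CXCL2 and CCL2, which attract neutrophils and monocytes, and the interferon-responsive transcription factor IRF1. CCL2 had 5.91, 2.32 and 0.996 FPKM before and 16.0, 16.6 and 25.9 FPKM after birth (log2(FC) 2.48, SE 0.44; limma adjusted p = 0.0206). CXCL2 had 0.586, 0.206 and 0.0962 FPKM before birth and 2.43, 3.99 and 3.66 FPKM after it (log2(FC) 1.75, SE 0.25; limma adjusted p = 0.0096).

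Both chemokines were higher in every neonatal sample. IL1A was listed at 0 in Fetal2 and had 0.255 and 0.149 FPKM in Fetal1 and Fetal3, while its neonatal levels were 1.65, 2.22 and 2.67 FPKM (log2(FC) 1.48, SE 0.22; limma adjusted p = 0.0115). IRF1 had 15.4, 9.21 and 16.1 FPKM against 26.6, 36.7 and 66.3 FPKM (log2(FC) 1.54, SE 0.36; limma adjusted p = 0.0488). VCAM1, an adhesion molecule of activated endothelium, had lower values after birth, 22.9 ± 2.22 against 11.6 ± 4.40 FPKM (SD, n = 3 each; limma adjusted p = 0.0809), and it fell past the threshold after either scaling (0.0326 and 0.0238).

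Not all of these calls held with 1 sample left out, and without Fetal2 none of the 4 passed in limma. The calls over all mRNAs also fell, from 1001 to 196 without Fetal2 and to between 255 and 944 without any other 1 sample. Whether the lost calls depend on Fetal2 was not tested. Without Fetal2 the log2(FC) was 1.39 for IL1A, 1.71 for CXCL2, 2.43 for CCL2 and 1.30 for IRF1. Over the samples left out in turn, the adjusted p reached 0.0633 for IL1A and CXCL2, 0.11 for CCL2 and 0.188 for IRF1. IL1A also did not pass without Neonatal2, CXCL2 without Neonatal3, CCL2 without Fetal3 or any 1 neonatal sample, and IRF1 without any 1 sample other than Neonatal1. Levels of leukocyte markers are given alongside. The sum of 2 neutrophil markers was 28.24 to 39.06 FPKM before birth and 188.3 to 287.3 FPKM after it. S100A8 alone had 25.66 to 37.72 and 185.5 to 280.2 FPKM and passed the threshold, while CSF3R did not (limma adjusted p = 0.0846). The sum of 6 macrophage markers was 268.0 to 638.2 FPKM before and 473.7 to 1137 FPKM after birth, with overlap and 0 past the threshold. Their part in the inflammatory genes was not tested.

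The chaperones and cofactors of the receptor did not pass the threshold in this comparison, with 0 of 23 genes called by limma. Of all mRNAs, 5.41% passed as higher and 1.45% as lower. The lowest adjusted p was 0.0557, for STIP1, which links HSP70 to HSP90. At an unadjusted p under 0.05 there were 7 genes, all with higher neonatal means, where 17.6% of all mRNAs were higher and 6.6% lower at that p, and the median log2(FC) was 0.20. FKBP4, the co-chaperone that favours transport of the receptor to the nucleus and competes with FKBP5, had 33.6 ± 3.92 FPKM before birth and 55.6 ± 10.96 FPKM after it (SD, n = 3 each; log2(FC) 0.70, limma adjusted p = 0.0983).

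FKBP4 and FKBP5 thus differed in opposite directions, and the difference between them was not tested. HSP90AA1, the stress-inducible HSP90 that holds the receptor ready for hormone, had 113.7 ± 17.5 and 190.2 ± 51.6 FPKM (SD, n = 3 each; log2(FC) 0.72, limma adjusted p = 0.153). NCOA1, a coactivator of steroid receptors, had 7.65 ± 0.348 and 7.34 ± 1.15 FPKM (SD, n = 3 each; log2(FC) -0.06, limma adjusted p = 0.860). STIP1 passed after median-of-ratios scaling (0.0489) and after quantile normalization (0.0398), and FKBP4 passed without Neonatal1 (0.0486).

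Few genes of steroid synthesis and turnover could be followed, since 3 of 21 symbols had a row matched by the reference symbols. These were SRD5A1, CYP21A2 and HSD17B4, and the other symbols may belong to rows without a matched symbol. By limma 0 of them passed, also at an unadjusted p under 0.05, and their median log2(FC) was -0.20. Shares of all mRNAs were 5.41% higher and 1.45% lower at the threshold, and 17.6% and 6.6% at the unadjusted p. With 3 genes, nothing is read from the absence of calls. CYP21A2, the adrenal 21-hydroxylase, was listed at 0 in 1 fetal and 2 neonatal samples. H6PD, which supplies HSD11B1 with its cofactor, and the mineralocorticoid receptor NR3C2 were not analysed here.

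The closest relatives of the genes gave a comparison within families. Of 18 symbols, 8 had a row matched by the reference symbols. Among these 8, 0 passed in limma, also at an unadjusted p under 0.05, and the median log2(FC) was 0.10. Shares of all mRNAs past the threshold were 5.41% higher and 1.45% lower, and 17.6% and 6.6% at the unadjusted p. KLF13, a relative of KLF9 in the same subfamily, had 21.3 ± 7.08 FPKM before and 27.9 ± 4.08 FPKM after birth (SD, n = 3 each; log2(FC) 0.41, limma adjusted p = 0.355). SGK3, an endosomal relative of SGK1, had 0.823 ± 0.164 and 0.757 ± 0.159 FPKM (SD, n = 3 each; log2(FC) -0.05, limma adjusted p = 0.892). TSC22D2, a relative of TSC22D3, was the 1 gene of the 8 whose groups did not overlap, with 6.19 ± 0.0451 against 7.85 ± 0.2415 FPKM (SD, n = 3 each; log2(FC) 0.30, limma adjusted p = 0.292). Over all mRNAs, groups did not overlap in 20.9% as higher and 9.64% as lower, so nothing is read from this count. TSC22D1 and FAM107B were not analysed here.

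Fetal animals differed among themselves, which was seen in the values and then counted. Fetal1 had the highest fetal FPKM in 7 of the 9 genes and in 18 of the 22 other induced genes, while it was above both other fetal samples in 42.4% of all mRNAs. The median deviation of the 9 genes from their mean over the 6 samples was 0.81 in Fetal1, 0.25 in Fetal2 and 0.19 in Fetal3 on the log2(FPKM + 1) scale. The neonatal samples stood at -0.22, -0.40 and -0.19, so the excess of Fetal1 was the largest deviation. Fetal1 was at least 1.5 times each other fetal sample in 2 of the 9 genes (FKBP5 and KLF9, 2.56 and 1.54 times) and in 6 of the 22, against 8.5% of all mRNAs.

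Among the 6 genes were PDK4 (2.76 times), IL1R2 (2.34 times), CRISPLD2 (1.89 times), BCL6 (1.52 times) and SESN1 (1.52 times). IL1R2 was low, at 1.33, 0.364 and 0.566 FPKM in Fetal1, Fetal2 and Fetal3, with a log2(FC) of -0.20. A second IL1R2 row, named from the study's supplement, had 2.48, 1.51 and 0 FPKM and a log2(FC) of 1.27. In FAM107A, ZBTB16 and PER1 the excess of Fetal1 stayed below 1.5 times. After median-of-ratios scaling Fetal1 exceeded by this margin in 1 of the 9 genes (FKBP5) and in 4 of the 22, with 6.55% of all mRNAs. It was the highest fetal sample in 6 of the 9 and 15 of the 22, with 31.5% of all mRNAs. All 6 macrophage markers were highest in Fetal1 among the fetal samples, with sums of 638.2, 268.0 and 410.7 FPKM in Fetal1, Fetal2 and Fetal3, and their part in these values was not tested.

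**Figure D3:**
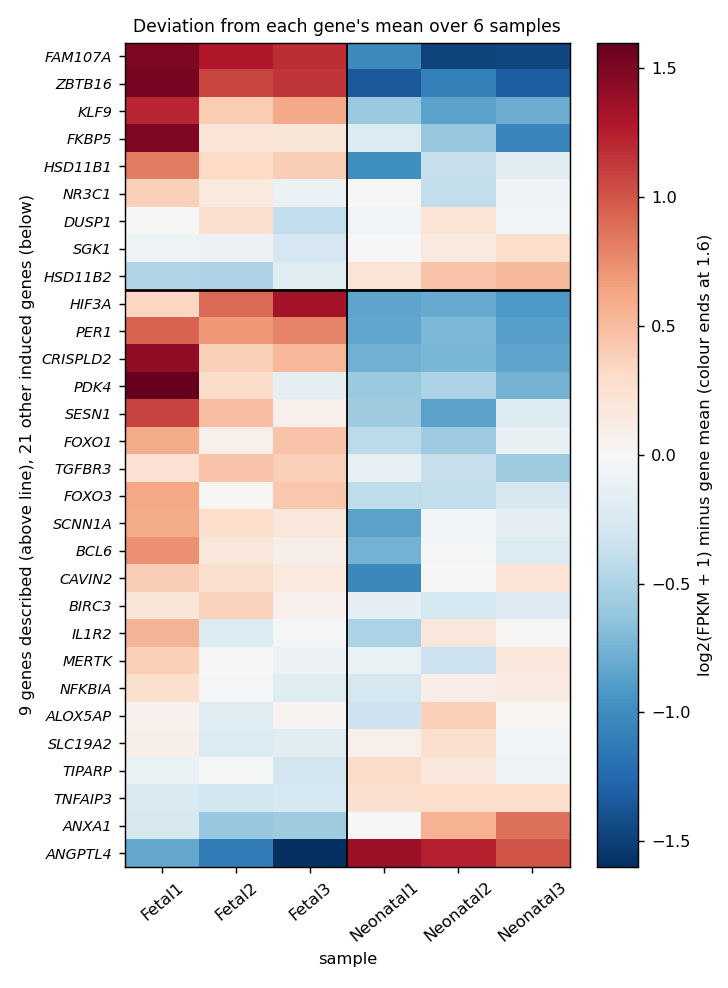
Deviation of log2(FPKM + 1) from the mean of the 6 samples for the 9 genes of the set and 21 of the 22 other induced genes (rows) in each sample (columns). Red is above and blue below the mean; Fetal1 is the highest fetal sample in 7 of the 9 rows above the line, and FAM107A, ZBTB16 and PER1 are red in all 3 fetal samples.

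**Figure D4:**
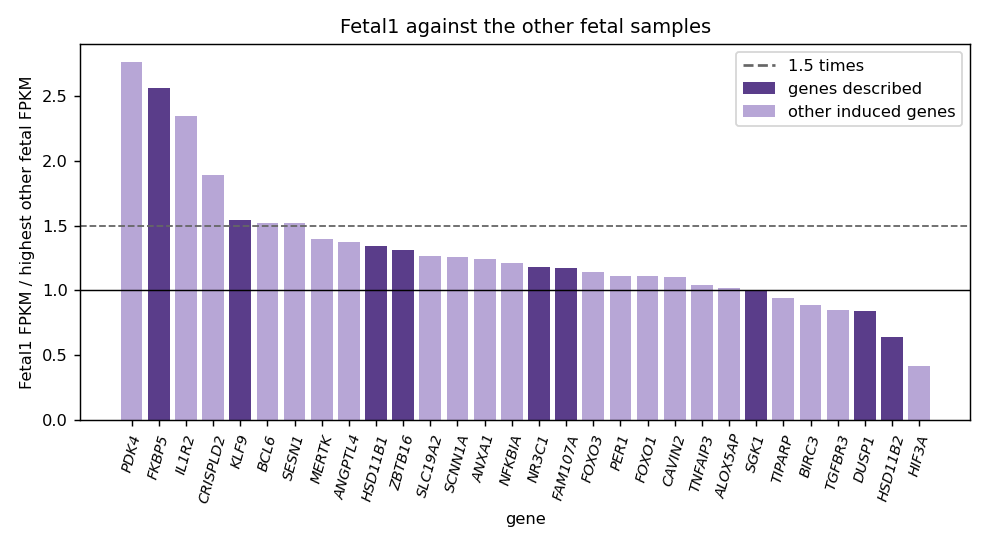
FPKM of Fetal1 divided by the higher of the other fetal samples, as bars from 0, for the 9 genes and for 21 of the 22 other induced genes. The dashed line marks 1.5 times; FKBP5 reaches 2.56 and PDK4 2.76, and FAM107A and ZBTB16 stay below the line.

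The mRNAs most like FAM107A were sought over the 6 samples among 8368 genes with a symbol and a mean of at least 1 FPKM. The highest Pearson r values of log2(FPKM + 1) were 0.996 for DTWD1, 0.9925 for TSGA10, 0.992 for ERMP1, 0.990 for PAPLN and 0.989 for PDE3B. The 6 samples form 2 groups, so these values mostly reflect the difference between the groups. PDE3B, a phosphodiesterase that degrades cAMP, had 31.7, 27.6 and 24.4 FPKM before and 12.7, 9.05 and 8.43 FPKM after birth. Within the set, r with FAM107A was 0.985 for ZBTB16, 0.967 for KLF9 and -0.973 for HSD11B2.

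Genes beside the 9 on the chromosome were compared as well, which was decided with their values known, with neighbours taken from the Sscrofa11.1 annotation. Among the 18 nearest genes with a row, 11 had higher and 7 lower neonatal means, with a median log2(FC) of 0.03. Over all 14579 mRNAs, 8729 had higher and 5850 lower means. The neighbours of FAM107A, ACOX2 of peroxisomal fatty acid oxidation and the receptor phosphatase PTPRG, had log2(FC) values of 0.01 and -0.21 (limma adjusted p = 0.977 and 0.465). Those of ZBTB16, USP28 and RBM7, had 0.04 and 0.01 (limma adjusted p = 0.912 and 0.985). One of the 18 passed, where 5.41% of all mRNAs passed as higher and 1.45% as lower. It was NEURL1B beside DUSP1, a ubiquitin ligase of the Notch pathway. NEURL1B rose by 1.55 (limma adjusted p = 0.0118) from 0.113 ± 0.196 to 2.27 ± 0.559 FPKM (SD, n = 3 each).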

How the data were processed

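RNA of 6 lungs was sequenced, 3 fetal and 3 neonatal. The authors deposited FPKM per mRNA, which per the submitters' processing notes came from TopHat2 2.1.0 and Cufflinks 2.2.1, on Sscrofa10.2. The table holds mRNAs with FPKM above 0.5 in at least 1 sample, and no scaling between samples is visible. The lncRNA table was not used, and neither were the fold changes and q values of the study's supplementary tables, from which the identifier of FAM107A was taken.

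Differences of log2(FPKM + 1) were tested by limma 3.58.1, run in R 4.3.3, whose variance prior followed the mean level. Benjamini-Hochberg adjustment took in all 14579 mRNAs, and the threshold was 0.05. Symbols came from a reference table, which matched 9478 mRNAs. Summaries and figures were made in Python 3.11.15. The fit was tested on simulated data. The 10 genes, the 5 lists of related genes and the 9 marker lists were chosen with earlier results of these data known. Named were the genes of the set, list members past the threshold (at most 6 each way), FKBP4, HSP90AA1, NCOA1, NR3C2, H6PD, PER1, TSC22D1, KLF13, SGK3 and FAM107B, and the 5 mRNAs most like FAM107A. Others were named after their values were seen, and 1 gene of the induced list is counted but not reported by name here. Groups followed the labels, and animals with the same number came from different sows.

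Alternatives were pseudocounts of 0.5 and 0.1, median-of-ratios scaling, quantile normalization, a filter that kept mRNAs exceeding 1 FPKM in 3 or more samples, a replicate block, a fit without the variance trend, and leaving out each sample. Symbols from the study's supplementary list of differentially expressed mRNAs and the scaled count for Fetal1 were added after the data were seen.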

Additional observations from a re-analysis of the deposited data

How the results depend on the processing

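With 3 animals a group and FPKM without read counts, the spread between animals was the only error, and genes at low FPKM or with 1 deviating animal are limited most. The number of mRNAs past the threshold was 1001, with 401 under the replicate block and 196 to 944 with 1 sample left out (196 without Fetal2, 255 without Neonatal2, 304 without Fetal1, 308 without Neonatal3 and 397 without Fetal3). Higher neonatal levels made up 78.8% of these calls, but 66.0% after median-of-ratios scaling and 57.9% after quantile normalization. Other induced genes past the threshold numbered 4, but 8 after median-of-ratios scaling, 8 after quantile normalization and 2 to 5 with 1 sample left out (2 without Fetal2, Neonatal2 or Neonatal3). Inflammatory genes numbered 4, and 0 to 4 with 1 sample left out (0 without Fetal2, 2 without Fetal3, 1 without Neonatal2 or Neonatal3). Chaperones and cofactors numbered 0, but 1 with the stricter filter, 1 after median-of-ratios scaling, 1 after quantile normalization and 0 to 2 with 1 sample left out (2 without Neonatal1). The median log2(FC) of the 9 genes, -1.02, was -1.37 after quantile normalization and -1.12 to -0.79 with 1 sample left out. The difference of the HSD11B1 to HSD11B2 log2 ratio, -1.80, was -2.34 at a pseudocount of 0.1 and -1.96 to -1.61 with 1 sample left out. At pseudocounts of 0.5 and 0.1 the log2(FC) of FAM107A, -2.64, was -2.95 and -3.30, and that of HSD11B2, 0.78, was 0.999 and 1.295. After quantile normalization that of ZBTB16, -2.49, was -2.72, and that of HSD11B1, -1.02, was -1.37. The log2(FC) of DUSP1 turned to -0.084 after median-of-ratios scaling and -0.36 after quantile normalization and was -0.082 to 0.24 with 1 sample left out (negative without Fetal3), and that of SGK1 turned to -0.039 after quantile normalization. The cause of these changes was not tested. Replicate numbers did not pair the animals, since the groups came from different sows. The correlations of deviations were -0.0407, -0.0043 and 0.00047 for numbers 1, 2 and 3, and -0.0493 to 0.0541 for unlike numbers. With 3 samples a group, these correlations cannot decide on pairing. Under the replicate block IRF1 did not pass (limma adjusted p = 0.0622), nor did it without a variance trend (0.0546). The search of promoters for receptor motifs was not run.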
